A study of Mus musculus with 6 samples.

Results

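The genes described here make cholesterol and fatty acids or control and move these lipids, 34 in all. They were chosen with earlier results of these data known. The list, taken by name, holds 18 sterol synthesis enzymes, 5 regulators, 2 sterol transport proteins and 9 genes of fatty acid synthesis and desaturation. Of these, 33 had at least 1 probe set that the platform annotation gave to that gene alone, among 18193 genes measured in the same way. Expression of Acat2 was not analysed here. A gene with several probe sets was represented by the one with the highest mean over the 6 arrays.

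Expression was measured on Affymetrix mouse arrays in 3 cultures that received 500 nM all-trans retinoic acid together with 50 nM Ag1.3, an agonist of the hedgehog receptor component Smoothened, and in 3 cultures that received 500 nM all-trans retinoic acid alone (RA). All 6 were embryoid bodies, free-floating aggregates of mouse embryonic stem cells, of 1 cell line in which the constitutive Rosa26 promoter drives Gli1 with a FLAG tag, so both groups carried this transgene for a hedgehog transcription factor. Treatment began after 2 days in suspension and lasted 3 days. The series' design text pairs each Ag1.3 culture with an RA culture grown in parallel, which gives 3 pairs, and no separate cell lines stand behind the replicates.

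Cells build cholesterol from acetyl-CoA through mevalonate, squalene and a series of sterol intermediates. When sterols in the endoplasmic reticulum run low, the escort protein Scap carries SREBP proteins, the products of Srebf1 and Srebf2, to the Golgi, where they are cut and released to switch on sterol and fatty acid genes. Insig proteins hold Scap back when sterols are plentiful. The hedgehog pathway is known for its ties to sterols, since its ligand carries a cholesterol group, Smoothened binds sterols and loss of Dhcr7 disturbs hedgehog-dependent development.

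The arrays showed the labelled treatment. Olig2, a factor of motor neuron progenitors, read 1213, 777 and 499 in Ag1.3 replicates 1 to 3, against 16.97, 8.51 and 24.66 in RA replicates 1 to 3, and Ptch1, a direct hedgehog target, rose by a log2 fold change of 1.23 (adjusted p = 0.0235 in limma). The Ptch1 call was lost without the pair as a block (adjusted p = 0.134), with a pseudocount of 1 (0.165) and without pair 1, 2 or 3 (0.0659, 0.115 and 0.081), with a log2 fold change of 1.05 to 1.35 in these fits. The Olig2 call (adjusted p = 0.00736) was lost with a pseudocount of 1 (0.127) and without pair 2 (0.0501). All 7 neural progenitor markers and all 10 pluripotency markers had means above the median probe set. So did all 12 neuron markers and 11441 of all 18193 genes, so this does not identify a cell type. Median intensities were 48.8 to 52.6 on Ag1.3 arrays and 48.7 to 51.9 on RA arrays, and across genes, which are not independent replicates, the arrays within each group had correlations of 0.982 to 0.992. Hybridization spikes had mean log2 intensities of 9.89 to 9.98 with Ag1.3 and 9.59 to 9.84 with RA, a shift of 0.19. The 3' to 5' ratio of actin, which reflects RNA quality, was 1.33 to 1.63 with Ag1.3 and 1.46 to 1.51 with RA.

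Most of the lipid synthesis genes read slightly higher with Ag1.3, and none passed the threshold of the test. Both statements depended on the processing: scaling to the spikes lowered the sterol median to 0.11, against 0.30 as reported, and the fatty acid median to 0.02, against 0.21, while 3 other settings called 12 to 17 of the 33. Of the 33, 31 had a log2 fold change above 0, against 48.1% of all genes, and 25 were higher in 3 of 3 pairs, against 17.2% of all genes. The median log2 fold change was 0.26 over the 33 and -0.01 over all genes. In limma's test with the pair as a block and Benjamini-Hochberg adjustment over all genes, 0 of the 33 passed an adjusted p of 0.05, against 1.39% of all genes, while 20 were higher at an unadjusted p under 0.05, against 7.24%. All 33 were brighter than the median probe set, and among the 11441 genes that were, 46% had a value above 0, 19.4% were higher in 3 of 3 pairs and 8.19% were higher at an unadjusted p under 0.05. Fold changes are on the log2(intensity + 16) scale, and errors of fold changes are limma's moderated SE. The p-values rest on a spread that limma draws from the gene's pairs of cultures of 1 line and from all genes together. In whole cultures a change within cells and a change in the mix of cells cannot be told apart.

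**Figure D1:**
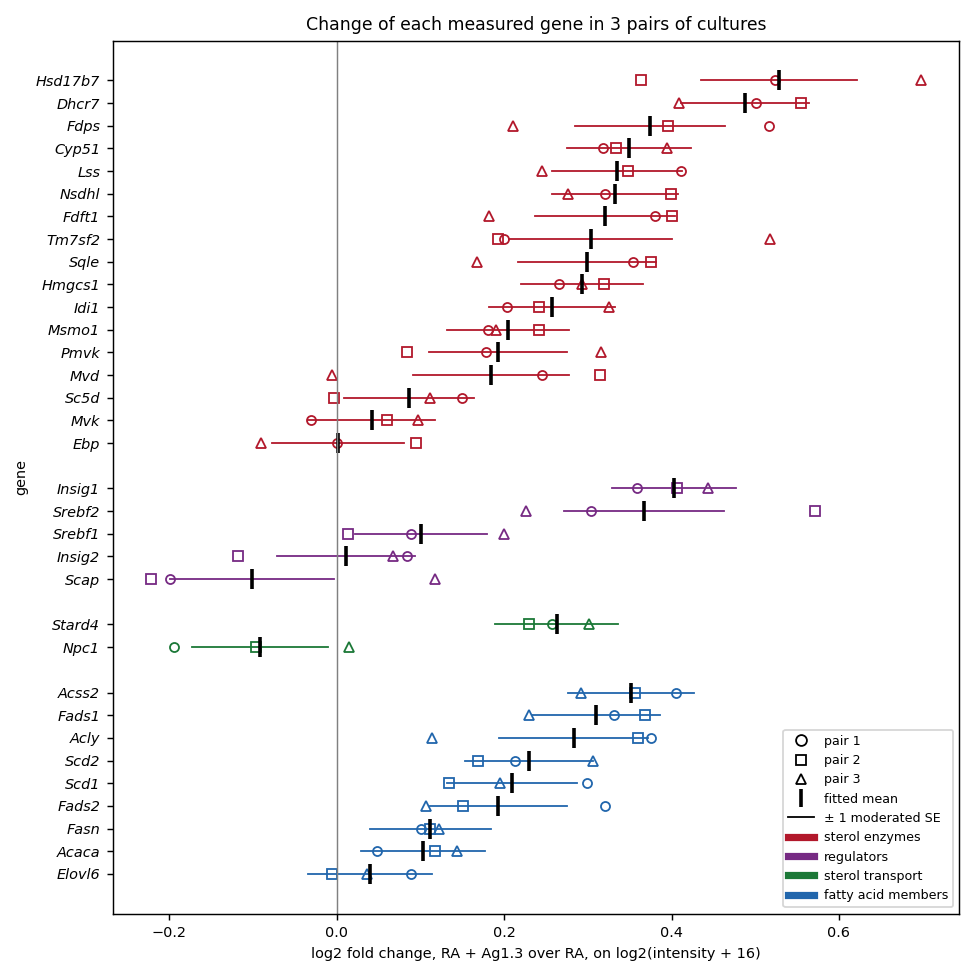
Log2 fold change of RA + Ag1.3 over RA (x axis, on log2(intensity + 16)) for each of the 33 measured genes (rows), by pair (open symbols), with the fitted mean (bar) and 1 moderated SE (line). The 17 sterol enzymes run between 0.00 and 0.53, the 9 fatty acid genes between 0.04 and 0.35, and Scap and Npc1 are the genes with a mean below 0.

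The 17 sterol synthesis enzymes had a median log2 fold change of 0.30, with medians of 0.27, 0.32 and 0.25 in pairs 1, 2 and 3. All 17 values were above 0, against 48.1% of all genes, and 13 were higher in 3 of 3 pairs, against 17.2%. At an unadjusted p under 0.05 in limma 12 were higher, against 7.24%. The 11 enzymes from squalene synthase onwards had a median of 0.32, and the 6 that work before it, from HMG-CoA synthase to farnesyl diphosphate synthase, had a median of 0.22. Pair 3 did not repeat that order. Medians in pairs 1, 2 and 3 were 0.320, 0.348 and 0.245 for the 11, against 0.225, 0.278 and 0.252 for the 6. The difference was not tested. Dhcr7, which makes cholesterol from 7-dehydrocholesterol in the last step, read 634, 666 and 431 in Ag1.3 replicates 1 to 3, against 444, 449 and 321 in RA replicates 1 to 3. Each Ag1.3 array lay above its RA partner, yet the groups overlapped because replicate 3 was low in both. Its log2 fold change was 0.49 (SE 0.08, adjusted p = 0.0586 in limma).

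Hsd17b7, a reductase that acts on the keto group left by demethylation of the sterol ring, read 274, 205 and 176 in Ag1.3 replicates 1 to 3, against 186, 155 and 102 in RA replicates 1 to 3. It was higher in every pair and had a log2 fold change of 0.53 (SE 0.09, adjusted p = 0.0743), the highest among the 33. The suffix of its chosen probe set marks probes that may match other transcripts, as do those of Hmgcs1 and Lss. The 3 other probe sets of Hsd17b7 gave 0.39, 0.40 and 0.17. Cyp51, the demethylase that acts on lanosterol, read 1049, 1057 and 675 in Ag1.3 replicates 1 to 3, against 838, 835 and 510 in RA replicates 1 to 3. The change was even across the pairs, at 0.32, 0.33 and 0.40, with a mean of 0.35 (SE 0.07, adjusted p = 0.11).

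Nsdhl, which works beside Hsd17b7 in the same demethylation, read 827, 870 and 557 in Ag1.3 replicates 1 to 3, against 659, 655 and 457 in RA replicates 1 to 3, a log2 fold change of 0.33 (SE 0.08, adjusted p = 0.129). Lss, which folds squalene epoxide into lanosterol, the first sterol, read 490, 505 and 330 in Ag1.3 replicates 1 to 3, against 365, 393 and 276 in RA replicates 1 to 3. Its log2 fold change was also 0.33 (SE 0.08, adjusted p = 0.135), and a dimmer probe set of the gene gave 0.61. Fdps, which makes farnesyl diphosphate for squalene and for protein prenylation, read 1761, 1844 and 1244 in Ag1.3 replicates 1 to 3, against 1226, 1397 and 1073 in RA replicates 1 to 3. Pair 1 gave its highest change, 0.52, and pair 3 its lowest, 0.21, around a mean of 0.37 (SE 0.09, adjusted p = 0.144).

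Ebp, the isomerase that shifts the double bond of the sterol ring, showed no such difference. It read 218, 241 and 202 in Ag1.3 replicates 1 to 3, against 218, 225 and 216 in RA replicates 1 to 3, a log2 fold change of 0.00 (SE 0.08, adjusted p = 0.995). Mvk, mevalonate kinase, and Sc5d, the desaturase before Dhcr7, also had small values, at 0.04 and 0.09. The remaining enzymes lay between these and the 6 above. Among them were Hmgcs1, which makes HMG-CoA, at 0.29, the squalene synthase Fdft1 at 0.32, the squalene epoxidase Sqle at 0.30 and the sterol reductase Tm7sf2 at 0.30. Idi1, which interconverts isoprenoid units, had 0.26, the methyl oxidase Msmo1 0.20, phosphomevalonate kinase Pmvk 0.19 and the decarboxylase Mvd 0.18. Pmvk, at 159 to 164 in Ag1.3 and 125 to 149 in RA cultures, was the 1 sterol enzyme whose groups did not overlap. With Acss2 below this made 2 of the 33 genes, against 6.45% of all genes higher without overlap.

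**Figure D2:**
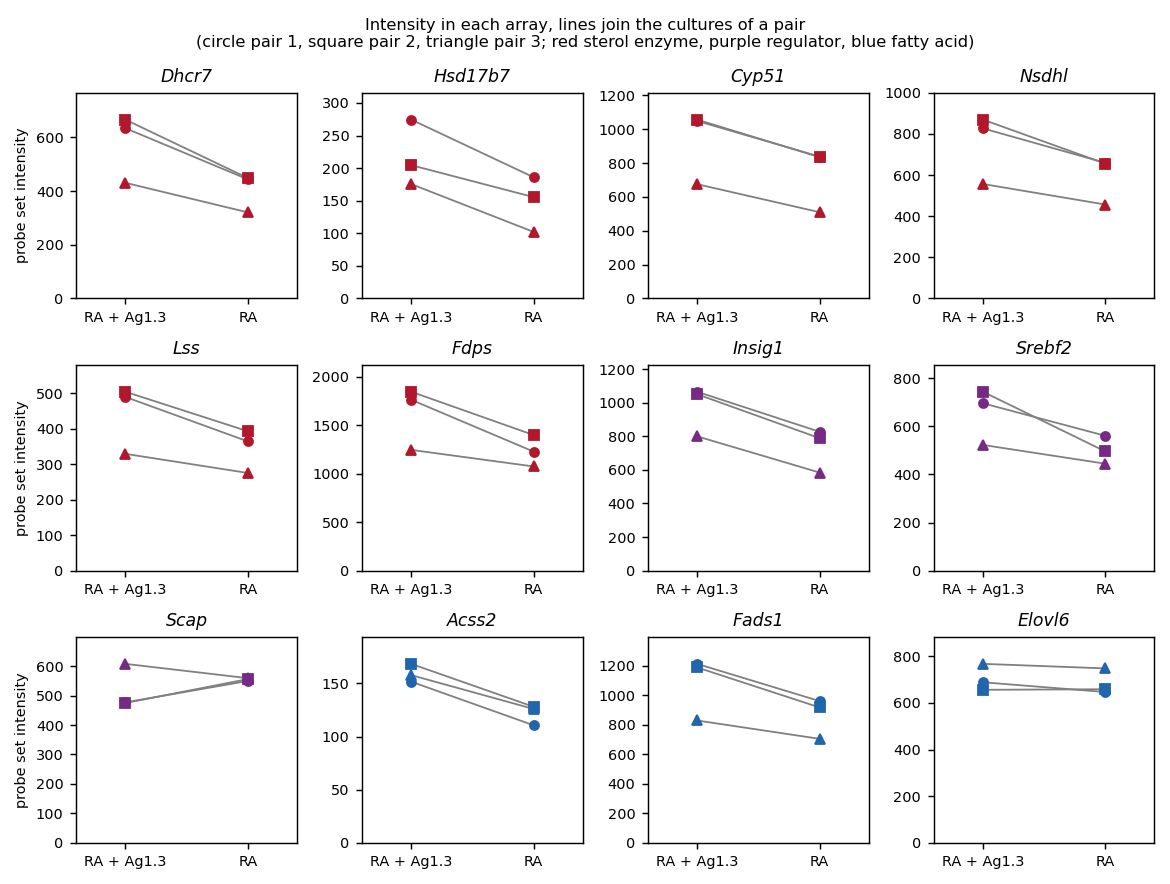
Probe set intensity (y axis, linear, from 0) in each array for 12 genes, RA + Ag1.3 on the left and RA on the right of each panel, with a line for each pair. Dhcr7, Cyp51 and Insig1 are higher with Ag1.3 within each pair although pair 3 sits lower in both groups, and Elovl6 is nearly level.

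Of the 5 regulators 0 passed the test, and their log2 fold changes ran from -0.10 to 0.40. Insig1, the retention protein that is itself a target of SREBP, read 1066, 1051 and 800 in Ag1.3 replicates 1 to 3, against 827, 789 and 584 in RA replicates 1 to 3. Its changes in the pairs were close to each other, at 0.36, 0.41 and 0.44, with a mean of 0.40 (SE 0.07, adjusted p = 0.0808). Srebf2, whose product acts mainly on sterol genes, read 696, 744 and 522 in Ag1.3 replicates 1 to 3, against 560, 495 and 444 in RA replicates 1 to 3, a log2 fold change of 0.37 (SE 0.10, adjusted p = 0.168). Srebf1, whose product acts mainly on fatty acid genes, read 444, 470 and 496 in Ag1.3 replicates 1 to 3, against 416, 466 and 430 in RA replicates 1 to 3. The ranges of Srebf1 overlapped and its log2 fold change was 0.10 (SE 0.08, adjusted p = 0.636). Whether Srebf1 and Srebf2 differed in their change was not tested.

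Insig2, the other retention protein, was nearly level between the groups, at 0.01 (adjusted p = 0.969). Scap, the escort protein, read 477, 475 and 608 in Ag1.3 replicates 1 to 3, against 550, 556 and 559 in RA replicates 1 to 3. Pairs 1 and 2 were lower and pair 3 was higher, with a mean of -0.10 (SE 0.10, adjusted p = 0.707). Of the transport proteins, Stard4, which carries cholesterol through the cytosol, read 833, 782 and 505 in Ag1.3 replicates 1 to 3, against 695, 665 and 407 in RA replicates 1 to 3. It was higher in all 3 pairs, at 0.26 (SE 0.07, adjusted p = 0.19). Npc1, which exports cholesterol from lysosomes, read 187, 229 and 268 in Ag1.3 replicates 1 to 3, against 217, 246 and 265 in RA replicates 1 to 3, a log2 fold change of -0.09 (SE 0.08, adjusted p = 0.677).

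The 9 fatty acid genes had a median log2 fold change of 0.21, with medians of 0.30, 0.15 and 0.14 in pairs 1, 2 and 3. All 9 values were above 0, against 48.1% of all genes, and 8 were higher in 3 of 3 pairs, against 17.2%. At an unadjusted p under 0.05 in limma 5 were higher, against 7.24%. Acss2, which makes acetyl-CoA from acetate, read 152, 168 and 158 in Ag1.3 replicates 1 to 3, against 111, 128 and 126 in RA replicates 1 to 3. Its groups did not overlap, and its log2 fold change was 0.35 (SE 0.07, adjusted p = 0.112). Fads1, a desaturase of polyunsaturated fatty acids, read 1214, 1190 and 830 in Ag1.3 replicates 1 to 3, against 961, 918 and 705 in RA replicates 1 to 3, a log2 fold change of 0.31 (SE 0.08, adjusted p = 0.153). Acly, which makes cytosolic acetyl-CoA from citrate for both pathways, read 2021, 1922 and 1443 in Ag1.3 replicates 1 to 3, against 1554, 1495 and 1332 in RA replicates 1 to 3. Pair 3 gave the smallest of its changes, 0.11, around a mean of 0.28 (SE 0.09, adjusted p = 0.23).

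Scd2, a stearoyl-CoA desaturase of the developing brain, read 4953, 5168 and 4233 in Ag1.3 replicates 1 to 3, against 4270, 4597 and 3419 in RA replicates 1 to 3, a log2 fold change of 0.23 (SE 0.08, adjusted p = 0.255). Its close relative Scd1 had 0.21, and their probe sets could in part read each other's transcripts. The genes that commit carbon to new fatty acids had smaller values, at 0.10 for Acaca, acetyl-CoA carboxylase, and 0.11 for Fasn, fatty acid synthase. Fads2, a second desaturase of polyunsaturated fatty acids, had 0.19. Elovl6, which lengthens palmitate, read 689, 657 and 768 in Ag1.3 replicates 1 to 3, against 647, 659 and 748 in RA replicates 1 to 3, a log2 fold change of 0.04 (SE 0.07, adjusted p = 0.859).

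Set beside each other, the sterol enzymes had the higher median, by 0.09, but the pairs did not repeat that order. The sterol median minus the fatty acid median was -0.03 in pair 1, 0.17 in pair 2 and 0.10 in pair 3, with an SD of 0.10 over the pairs. This difference was not tested, and the ranges of 0.00 to 0.53 and 0.04 to 0.35 overlapped.

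Levels of the sterol genes also differed between pairs. Of the 17 sterol enzymes, 16 had their lowest reading in replicate 3 of both groups, as did 7 of the 9 fatty acid genes and 17.6% of all genes. The median deviation of the sterol enzymes from each gene's mean over the 6 arrays was 0.29, 0.29 and -0.20 in Ag1.3 replicates 1 to 3, and -0.01, 0.00 and -0.38 in RA replicates 1 to 3. Without the pair as a block, 5 of the 33 genes were higher at an unadjusted p under 0.05, against 4.58% of all genes, and 0 passed after adjustment, against 0.473%.

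Markers of other cells moved between the same arrays. Of 12 neuron markers, 8 rose with Ag1.3, against 1.39% of all genes called in either direction. The median log2 fold change over the list was 1.23, while Syt1 was lower in each pair, with a mean of -0.11. Summed intensities of the 12 were 7131 to 10328 in Ag1.3 and 2425 to 4233 in RA cultures. The median deviation of the neuron markers was 0.93, 0.55 and 0.31 in Ag1.3 replicates 1 to 3, and -0.22, -0.54 and -0.97 in RA replicates 1 to 3. The neuron markers were lowest in replicate 3 of each group, as were the sterol enzymes (-0.20 in Ag1.3, -0.38 in RA). Neural progenitor (-0.12 in Ag1.3, -0.48 in RA) and cycling markers (-0.05, 0.01) were also lowest in replicate 3 of each group. Pluripotency (0.28, 0.71), mesoderm (0.40, 0.26) and endoderm markers (0.19, 0.02) were highest there, though 0 of the 5 measured mesoderm markers were brighter than the median probe set. Glia markers, a list that included Olig2, were highest there in Ag1.3 (0.25) and lowest in RA (-0.21). Of 10 pluripotency markers, 1 fell (Pou5f1), against 1.39% of all genes called in either direction, and 8 were lower at an unadjusted p under 0.05, against 7.68%. Their list median was -0.65, and 8 were lower in 3 of 3 pairs, against 3542 of all 18193 genes. Summed intensities were 3550 to 7171 in Ag1.3 and 5592 to 9351 in RA cultures. None of 9 markers of cycling cells passed in limma or had an unadjusted p under 0.05, with a median of -0.08 and sums of 14536 to 15315 in Ag1.3 and 15062 to 16013 in RA cultures. Of 11 markers of endoderm and yolk sac, tissues rich in lipid metabolism, 1 fell (Sox17), against 1.39% of all genes called in either direction. The groups overlapped for Sox17, and 3 of the 11 markers were brighter than the median probe set. Sums over the 11 were 320 to 529 in Ag1.3 and 364 to 656 in RA cultures. Apoa1, an apolipoprotein of yolk sac and liver, read 1.35, 3.74 and 6.84 in Ag1.3 replicates 1 to 3, against 2.56, 6.33 and 3.96 in RA replicates 1 to 3, while control probe sets with no spike read 4.02 to 20.71. The part of these cells in the lipid genes' values was not tested.

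**Figure D3:**
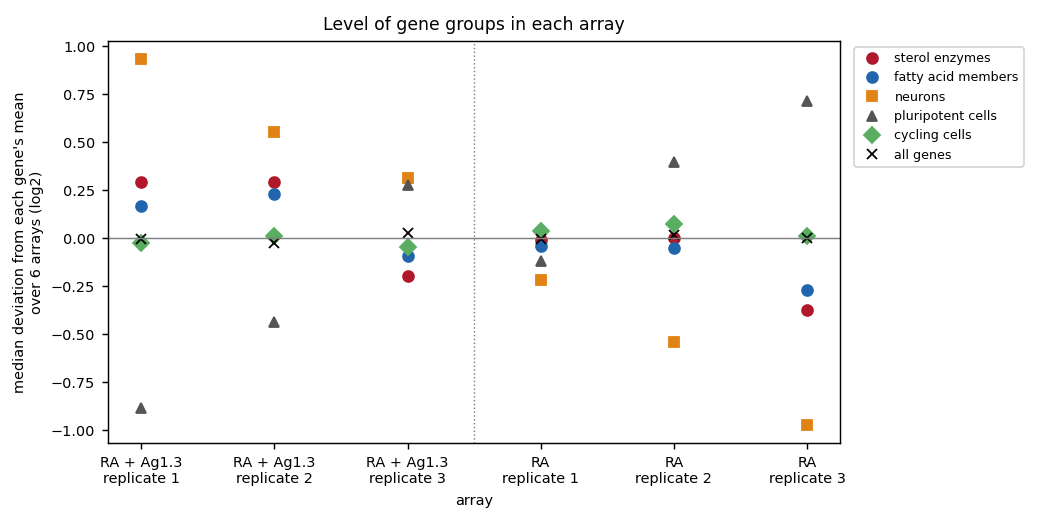
Median deviation of groups of genes from each gene's mean over the 6 arrays (y axis, log2 scale) in each array (x axis), with RA + Ag1.3 arrays on the left. Sterol enzymes sit at 0.29, 0.29 and -0.20 on Ag1.3 arrays and at -0.01, 0.00 and -0.38 on RA arrays, and neuron markers lie above 0 on the 3 Ag1.3 arrays and below 0 on the 3 RA arrays.

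Further probe sets gave more readings of the same genes, on the same arrays and with the same scaling, so they cannot check the scaling. The 33 genes had 43 probe sets besides the chosen ones, of which 32 were brighter than the median probe set. Of these 32, 28 had a value above 0, against 46% of genes above the median probe set. The median of the 32 was 0.24. All 15 that belonged to sterol enzymes were above 0, with a median of 0.27. Hmgcs1 was read by 4 further probe sets, which gave 0.28, 0.24, 0.33 and 0.29. The exceptions were in Insig2 (-0.05 and -0.03), Acaca (-0.16) and Elovl6 (-0.28). Of 11 dim probe sets 5 were above 0, with a median of -0.04.

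**Figure D4:**
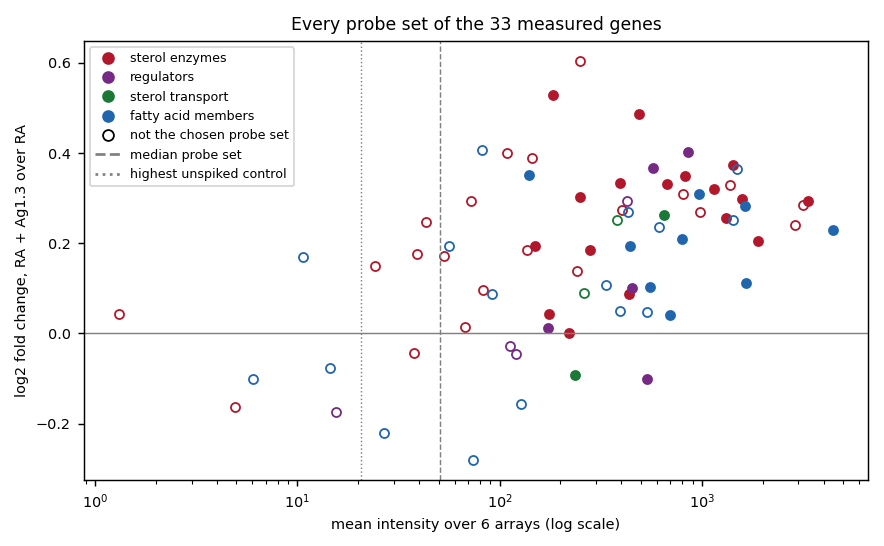
Log2 fold change of RA + Ag1.3 over RA (y axis) against mean intensity over the 6 arrays (x axis, log scale) for all 76 probe sets of the 33 genes, with the chosen ones filled. Right of the dashed line, which marks the median probe set at 50.9, sterol enzymes lie at or above 0, and left of it values scatter around 0.

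Genes of the same pathways outside the list showed a mixed picture. Of 11 other sterol genes 1 rose and 0 fell, against 1.39% of all genes called in either direction, and 2 were higher and 2 lower at an unadjusted p under 0.05, against 7.24% and 7.68%. The median log2 fold change was 0.02. The one that rose was Vldlr, a lipoprotein receptor that also receives reelin in the brain, at 420, 203 and 239 in Ag1.3 replicates 1 to 3, against 85.4, 65.0 and 58.8 in RA replicates 1 to 3 (log2 fold change 1.77, SE 0.14, adjusted p = 0.0104). This call was lost without the pair as a block, with a pseudocount of 1 and without pair 3. Lrp8, the other reelin receptor, had 0.60 (adjusted p = 0.0905), and Mylip, a ligase that removes lipoprotein receptors, had -0.30 (adjusted p = 0.153). Of 4 genes of the liver X receptor, which responds to surplus sterols, and of sterol efflux, 0 passed in limma and 2 were lower at an unadjusted p under 0.05, against 7.68% of all genes. Apoe, a lipoprotein component, read 419, 529 and 897 in Ag1.3 replicates 1 to 3, against 667, 826 and 1103 in RA replicates 1 to 3, lower in each pair (log2 fold change -0.52, adjusted p = 0.0905). The efflux transporters Abcg1 and Abca1 had -0.35 and 0.10. Of 22 other fatty acid genes 0 passed in limma, 5 were higher at an unadjusted p under 0.05, against 7.24% of all genes, and 1 was lower, against 7.68%. The median of this list was 0.05. Those with the smallest p were Me1, malic enzyme, at -0.27, Elovl4, an elongase of very long chains, at 0.26 and Mid1ip1, an activator of acetyl-CoA carboxylase, at 0.25.

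Promoters of the listed genes, whatever their change, were searched for the letters of known sites. RefSeq windows (GRCm38.p6, 250 bases before to 50 after the start) were at hand for 26 of the 34 genes. They were searched on both strands for TCACNCCAC, a core of the sterol regulatory element, CCAAT, the box of NF-Y, a usual partner of SREBP, GGGCGG, the GC box, and GACCACCCA, the core of the Gli site. The CCAAT box was in 14 of 15 sterol enzyme genes, 4 of 5 regulators and 3 of 6 fatty acid genes, against 42% of 14452 genes on the array. The GC box was in 14 of 15, 5 of 5 and 3 of 6, against 57.3%. TCACNCCAC was in 1 of the 26, Hmgcs1, 137 bases before its start, against 1.46% of genes on the array, and GACCACCCA was in 0 of the 26, against 0.235%. These are matches of letters in short windows, with no overlap between the 2 motifs set in capitals, and some genes had several windows. Ebp, with a log2 fold change of 0.00 (SE 0.08), also held CCAAT boxes. A link between these boxes and the changes was not tested. The 6 windows below are for enzymes and a regulator named above, the fatty acid gene without overlap, and Ebp. Capitals mark TCACNCCAC and CCAAT on either strand, and for Dhcr7 the one of 3 windows with a CCAAT box was chosen.
Hmgcs1, chr13:119690101-119690400, + strand: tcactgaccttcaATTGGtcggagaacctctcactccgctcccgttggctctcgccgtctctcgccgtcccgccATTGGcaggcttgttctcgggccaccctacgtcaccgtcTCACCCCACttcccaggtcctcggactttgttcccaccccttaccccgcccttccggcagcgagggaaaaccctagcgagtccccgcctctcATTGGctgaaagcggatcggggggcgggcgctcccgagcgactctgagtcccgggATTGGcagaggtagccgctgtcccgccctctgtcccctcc
Dhcr7, chr7:143829964-143830263, + strand: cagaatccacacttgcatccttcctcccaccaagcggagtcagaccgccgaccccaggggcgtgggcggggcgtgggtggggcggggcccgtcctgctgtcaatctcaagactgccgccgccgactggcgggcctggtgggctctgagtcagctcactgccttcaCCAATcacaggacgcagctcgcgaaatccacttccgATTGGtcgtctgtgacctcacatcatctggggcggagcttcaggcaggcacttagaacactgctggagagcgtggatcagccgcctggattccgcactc
Hsd17b7, chr1:169969156-169969455, - strand: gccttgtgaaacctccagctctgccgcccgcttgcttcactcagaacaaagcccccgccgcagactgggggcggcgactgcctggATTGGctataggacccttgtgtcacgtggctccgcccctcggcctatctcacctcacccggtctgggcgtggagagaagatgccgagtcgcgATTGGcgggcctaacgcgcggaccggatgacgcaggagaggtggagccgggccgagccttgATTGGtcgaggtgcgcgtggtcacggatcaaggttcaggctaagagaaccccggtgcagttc
Insig1, chr5:28071162-28071461, + strand: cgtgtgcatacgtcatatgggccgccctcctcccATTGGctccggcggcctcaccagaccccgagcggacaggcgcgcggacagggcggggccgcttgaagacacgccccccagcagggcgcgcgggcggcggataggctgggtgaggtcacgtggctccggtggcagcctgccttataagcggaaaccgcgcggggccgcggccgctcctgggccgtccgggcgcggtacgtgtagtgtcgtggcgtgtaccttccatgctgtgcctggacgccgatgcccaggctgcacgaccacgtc
Acss2, chr2:155517793-155518092, + strand: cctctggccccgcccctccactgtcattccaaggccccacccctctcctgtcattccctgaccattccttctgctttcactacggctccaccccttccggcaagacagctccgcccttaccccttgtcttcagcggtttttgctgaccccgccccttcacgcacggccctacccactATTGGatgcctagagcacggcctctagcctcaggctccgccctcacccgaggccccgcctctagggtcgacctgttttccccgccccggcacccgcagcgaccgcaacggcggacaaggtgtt
Ebp, chrX:8193463-8193762, - strand: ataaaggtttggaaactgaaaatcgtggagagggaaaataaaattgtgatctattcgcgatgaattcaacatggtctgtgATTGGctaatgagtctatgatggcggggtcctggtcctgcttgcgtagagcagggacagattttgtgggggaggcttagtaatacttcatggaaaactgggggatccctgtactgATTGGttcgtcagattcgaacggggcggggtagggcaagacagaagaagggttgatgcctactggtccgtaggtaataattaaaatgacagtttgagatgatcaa

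The processing decided which genes passed. Where limma's moderation followed intensity, 17 of the 33 passed, all higher, against 2.83% of all genes higher, and 11 of them were sterol enzymes and 3 fatty acid genes. Among genes above the median probe set alone 12 passed, against 4.34% higher, and with a pseudocount of 64 it was 13, against 2.6%. In these 3 settings Dhcr7 had an adjusted p of 0.00285, 0.00767 and 0.0086, and Insig1 of 0.00285, 0.014 and 0.0114. The main test included 21 genes with no residual spread, and with these left out, a choice made after seeing the data, Dhcr7 was the 1 that passed (adjusted p = 0.0457), against 1.43% of all genes higher. Scaling the arrays to the hybridization spikes moved the median of all genes to -0.16, and the sterol and fatty acid medians to 0.11 and 0.02. Relative to all genes these were 0.27 and 0.18, against 0.31 and 0.22 as reported. With that scaling 2 of the 33 were higher at an unadjusted p under 0.05, against 2.86% of all genes. It left 14 of 17 sterol enzymes and 6 of 9 fatty acid genes above 0.

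**Figure D5:**
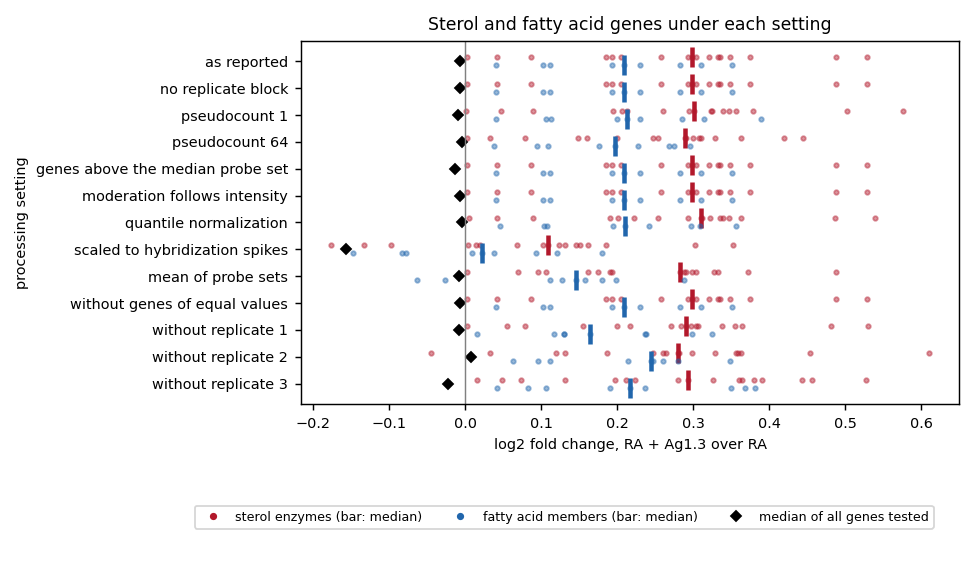
Log2 fold change of RA + Ag1.3 over RA (x axis) of the 17 sterol enzymes and 9 fatty acid genes (points, bars for their medians) and the median of all genes tested (diamonds) under each processing setting (rows). Medians of both groups lie right of the diamond in each row, and scaling to the spikes moves the sterol median to 0.11 and the fatty acid median to 0.02.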

How the data were processed

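Gene expression was measured in 3 Ag1.3 and 3 RA cultures with 1 array each, from total RNA, with a mirVana kit for isolation and a 3' IVT kit for labelling, per the labels' protocols. The authors deposited linear intensities per probe set. How these were summarised and scaled was not given in the sources used here. Of 45101 probe sets 64 controls were left out, and 34945 had 1 symbol in the platform annotation, 34741 of them matched to RefSeq by gene identifier. For each of 18193 genes the probe set of highest mean log2(intensity + 16) was kept. Genes were tested two-sided with limma 3.58.1 in R 4.3.3 (lmFit, eBayes), taking the pair as a block, with Benjamini-Hochberg adjustment over all genes and a threshold of 0.05. The fit was tested on simulated data.

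The pairing comes from the series' design text. Deviations from group means correlated at 0.54, 0.19 and 0.56 within pairs 1, 2 and 3. The members and gene lists were chosen with earlier results of these data known, so no p over a list is given. Values in every array are given for the genes with the smallest p in each group (6 sterol enzymes, 3 regulators, both transport genes, 4 fatty acid genes) and for the lowest of each group, and the 3 with the smallest p are named from each list of other pathway genes. The number of arrays limits the precision. Alternatives changed the block, pseudocount, filter, moderation, scaling, probe set choice or pairs included.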

Additional observations from a re-analysis of the deposited data

How the results depend on the processing

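All of the medians below are log2 fold changes of Ag1.3 over RA, and limma made all calls. Of all genes, 252 passed as reported, 86 in the fit without the replicate block, 0 where the pseudocount was 1, where 18 of the 33 lipid genes had an unadjusted p under 0.05, 831 with a pseudocount of 64, 950 among genes above the median probe set, 891 with moderation that follows intensity and 1686 after scaling to the spikes. Without 1 of the pairs the count was 35 to 62. Of the 33, 0 passed as reported, 13 with a pseudocount of 64, 12 above the median probe set and 17 with moderation that follows intensity, of which 2, 2 and 3 were regulators or transport genes. With an unadjusted p under 0.05 there were 20 as reported, 5 without the replicate block and 4 after scaling to the spikes, 2 of them higher. Leaving out a pair gave 10 to 16. Calls of other pathway genes (11 sterol, 4 liver X receptor and efflux, 22 fatty acid) were counted in either direction. Of them 1 passed as reported, against 252 of all 18193 genes. The count was 0 without the replicate block, against 86, and 0 where the pseudocount was 1, against 0. With a pseudocount of 64 it was 3, against 831, and with moderation that follows intensity 4, against 891. Above the median probe set it was 5, against 950 of 11441. After scaling to the spikes it was 6, against 1686, with a median of -0.16 over all genes. Without a pair it was 0 to 1, against 35 to 62. The sterol and fatty acid medians were 0.30 and 0.21 as reported and 0.109 and 0.0217 after scaling to the spikes. After that scaling Mvk (-0.13), Ebp (-0.18), Sc5d (-0.10), Insig2 (-0.16), Srebf1 (-0.0842), Acaca (-0.0835), Fasn (-0.0782) and Elovl6 (-0.15) turned below 0. With the mean of probe sets Insig2 (-0.0208), Acaca (-0.0268) and Elovl6 (-0.0639) did. Leaving out 1 pair moved Insig2 to -0.0251 to 0.0756 and Ebp to -0.0451 to 0.0479, and left Dhcr7 and Insig1 above 0. With genes of no residual spread left out, chosen after seeing the data, 1 of the 33 passed. The causes were not tested.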
